A study of Mus musculus with 6 samples.

Results

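The malate-aspartate shuttle genes are 7 of the 54331 genes for which an expression value was deposited, and they were chosen by name as the enzymes and carriers of the shuttle, by a rule that uses no measured value, though with earlier results of these data known. They are *Mdh1* and *Mdh2*, the cytosolic and mitochondrial malate dehydrogenases, *Got1* and *Got2*, the cytosolic and mitochondrial aspartate aminotransferases, *Slc25a11*, the carrier that exchanges malate for α-ketoglutarate (αKG), and *Slc25a12* and *Slc25a13*, the carriers that exchange aspartate for glutamate. RNA was measured in male mouse embryonic fibroblasts (MEFs) that were being reprogrammed to induced pluripotent stem cells. The MEFs came from several E13.5 embryos with an Oct4-EGFP transgene and a mixed C57BL/6, DBA/2 and ICR background. All cells had been transduced by retrovirus with Oct4, Sox2, Klf4 and a myristoylated AKT-MER, which is AKT fused to a modified estrogen receptor and becomes active when 4-hydroxytamoxifen (4OHT) is added. From 3 days post infection (dpi), 3 wells received 1 µM 4OHT (the OSKA + 4OHT group) and 3 wells received ethanol, its vehicle (the OSKA − 4OHT group), and RNA was taken at 10 dpi. As far as is stated, the 6 wells were seeded from 1 pool of infected cells, so the p-values measure the spread between wells. Cells given 4OHT without AKT-MER were not analysed here, so a response to active AKT and a response to 4OHT itself cannot be told apart in these libraries.

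The shuttle carries the reducing power of cytosolic NADH into mitochondria, because NADH itself does not cross the inner membrane. In the cytosol, MDH1 reduces oxaloacetate to malate and oxidizes NADH. SLC25A11 brings the malate into the matrix in exchange for αKG, MDH2 oxidizes it to oxaloacetate, and GOT2 turns oxaloacetate and glutamate into aspartate and αKG. SLC25A12 and SLC25A13 export the aspartate in exchange for glutamate, and GOT1 turns aspartate and αKG back into oxaloacetate and glutamate. The shuttle lets glycolysis go on without making lactate, and it is also a route by which αKG, a cofactor of TET enzymes, and aspartate, a precursor of nucleotides, move between mitochondria and cytosol. Whether the shuttle could be such a route for αKG in AKT-activated cells is the question to which the comparison of the groups belongs.

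The values are TPM, a unit of transcript abundance that relates each transcript to the whole library. They are scaled to transcript length, so that levels of different genes can be set side by side. They add up to 1000000 in each well, and the sequencing depth is therefore not known. The number of genes above 0 ranged from 15814, in replicate 1, to 17692 without 4OHT and from 17578 to 18230 with it. The 15382 genes whose mean reached 1 TPM were tested on the log2(TPM + 0.5) scale by limma-trend. Genes were called where the p adjusted by the method of Benjamini and Hochberg was under 0.05. Each log2 fold change below is OSKA + 4OHT relative to OSKA − 4OHT on this scale. By this test 542 genes were higher and 303 lower (205 to 505 calls in total when 1 well was left out). The share of higher genes among the calls, 64.1%, fell to 49.2% (459 higher, 473 lower) with trimmed mean scaling factors (TMM) and to 49.7% (428 higher, 434 lower) under quantile normalization. The tested genes had a median log2 fold change of 0.14, against 0.032 under TMM and -0.005 under quantile normalization, and the members are given relative to it where this matters.

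Markers of several cell types differed between the groups. The summed level of 7 fibroblast markers was 7372 to 8920 TPM in the OSKA − 4OHT wells and 4486 to 5808 TPM in the OSKA + 4OHT wells, and 3 of the 7 (*Col1a2*, *Pdgfrb* and *Fn1*) were called lower. Of the other fibroblast markers, *Thy1* was at 198, 208 and 133 TPM without and at 222, 268 and 390 TPM with 4OHT (log2 fold change 0.69, limma-trend adjusted p = 0.203), in the opposite direction to the sum, and *Pdgfra* was at 5.66 ± 0.847 and 5.14 ± 0.564 TPM (SD, n = 3 each). The summed level of 9 pluripotent cell markers was 7.45 to 16.8 TPM and 64.1 to 72.2 TPM, with 4 of the 8 tested called higher, and *Dppa5a*, *Lin28a* and *Utf1* were listed at 0 in all 3 OSKA − 4OHT wells. That of 4 epithelial markers was 30.1 to 69.3 TPM and 144 to 156 TPM, with 3 (*Cdh1*, *Epcam* and *Krt8*) called higher. The 7 macrophage markers summed to 124 to 135 TPM and 78.1 to 89.7 TPM. *Lyz2* was the 1 macrophage marker called, lower, and the other 6 summed to 28.3 to 40.9 TPM and 26.6 to 41.5 TPM. No marker of these lists was listed at 0 in all 6 wells. The part of these differences in the values of the shuttle genes was not tested, and in these bulk samples fewer cells of a type and less RNA per cell cannot be told apart.

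Of the 7 shuttle genes, 1, *Got2*, was called higher in the OSKA + 4OHT group and 0 were called lower, where 3.52% of all tested genes were called higher and 1.97% lower. In 4 of the 7 (*Got1*, *Got2*, *Slc25a11* and *Slc25a13*) the 3 values with 4OHT all exceeded the 3 without it, which was the case for 18.1% of all tested genes. Of the 7, 3 (*Got1*, *Got2* and *Slc25a13*) had an unadjusted p under 0.05, against 21.3% of all tested genes. The log2 fold change was above 0 for all 7 members, against 59.4% of all tested genes, and for 6 of 7 under TMM, where *Mdh2* was at -0.024. The members' median log2 fold change was 0.61.

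**Figure D1:**
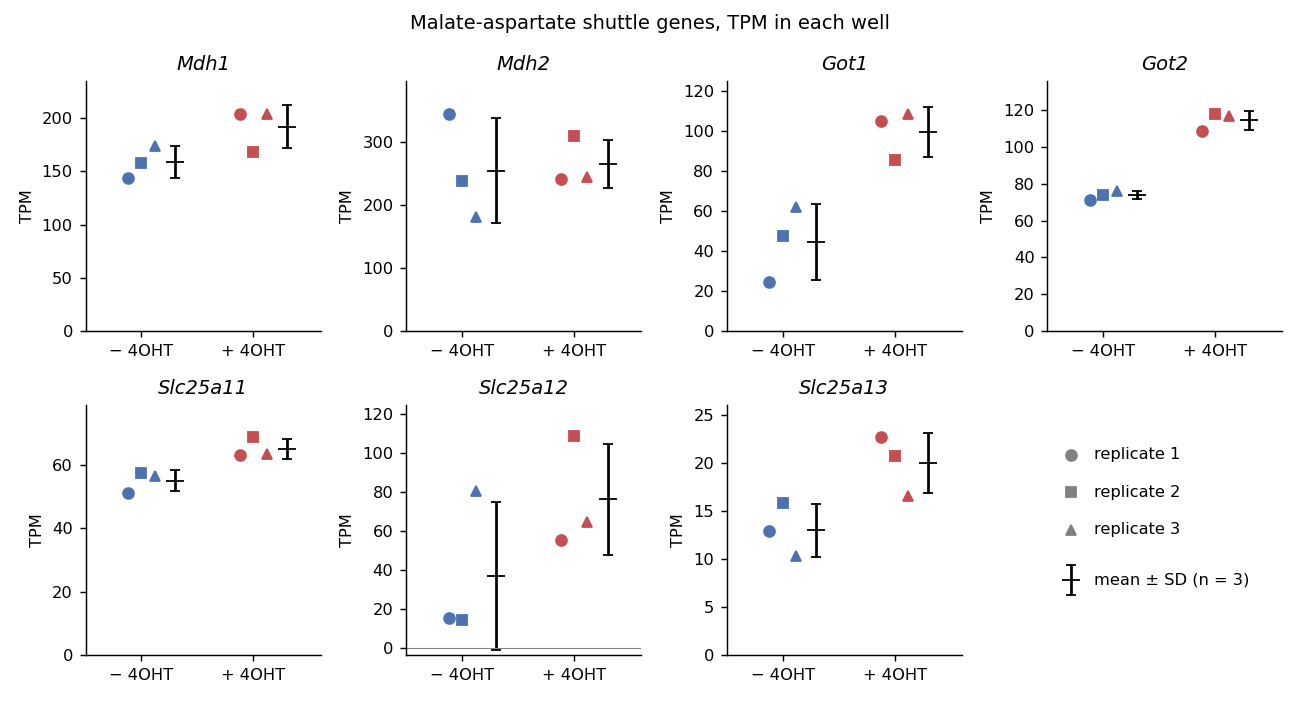
Level of each shuttle gene in TPM (y axis, a separate linear scale for each gene) in the 3 OSKA − 4OHT and the 3 OSKA + 4OHT wells. Symbols are wells by replicate number, bars are the mean ± SD (n = 3). *Got2* lies between 71.4 and 76.1 TPM without and between 108 and 118 TPM with 4OHT, while *Slc25a12* at 80.8 TPM in OSKA − 4OHT replicate 3 lies among the OSKA + 4OHT wells.

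The aminotransferases had the lowest unadjusted p-values of the members by limma-trend, and of them only *Got2* was called. *Got2* (ENSMUSG00000031672), which lies on chromosome 8 (GRCm38, 95864134 to 95888547, minus strand, 10 exons in its longest coding transcript), makes the aspartate that leaves the matrix. It was at 71.4, 74.0 and 76.1 TPM in OSKA − 4OHT replicates 1, 2 and 3 and at 108, 118 and 116 TPM in the OSKA + 4OHT wells. The wells of each group lay close together and the groups were far apart. The mean rose from 73.8 ± 2.38 to 114 ± 5.14 TPM (SD, n = 3 each), a 1.55-fold difference. Its log2 fold change was 0.63 (95% confidence interval 0.34 to 0.91, standard error 0.12; limma-trend, Benjamini-Hochberg adjusted p = 0.0355). The spread of *Got2* within the groups was among the smallest, since only 0.507% of tested genes had a within-group SD as small or smaller. Relative to the median of all genes its log2 fold change was 0.48, higher than that of 76.5% of tested genes. The call was lost when any 1 of the 6 wells was left out (adjusted p 0.0539 to 0.0764), under TMM (0.0680), under quantile normalization (0.0556) and with limma without a trend (0.0905), while the log2 fold change stayed between 0.50 and 0.66 in these fits.

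*Got1* (ENSMUSG00000025190; chromosome 19, GRCm38, 43499752 to 43524605, minus strand, 9 exons), the cytosolic partner, was at 24.4, 47.4 and 61.9 TPM in OSKA − 4OHT replicates 1, 2 and 3 and at 105, 85.6 and 109 TPM in the OSKA + 4OHT wells. The groups did not overlap, but the OSKA − 4OHT wells were widely spread, with replicate 1 lowest. The group means were 44.6 ± 18.9 without and 99.8 ± 12.5 TPM with 4OHT (SD, n = 3 each), a ratio of 2.24. The log2 fold change was 1.25 (standard error 0.34, 95% confidence interval 0.42 to 2.07), larger than that of *Got2*, and it did not pass the test (unadjusted p = 0.00986, adjusted p = 0.0978 by limma-trend). Without OSKA − 4OHT replicate 1, the well with the fewest genes above 0, it was 0.87. The within-group SD of *Got1* was at the 58.7th percentile of tested genes, so the same test resolved a smaller difference for *Got2* than for *Got1*. The 2 aminotransferases together made up 95.7 to 138 TPM in the OSKA − 4OHT wells and 203 to 225 TPM in the OSKA + 4OHT wells. These sums could not overlap, since neither gene overlapped on its own.

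The promoters of the aminotransferases are shown because these are the members with the largest called and the largest non-overlapping difference. The windows run from 250 bases before to 50 bases after the gene start (RefSeq, GRCm38.p6) and are read 5′ to 3′ on the gene's strand. The *Got1* window is chr19:43524556-43524855 and the *Got2* window is chr8:95888352-95888651, both on the minus strand. Capitals mark matches on either strand to the motifs that were searched, which were AAGGTCA (the binding core of ERR and other nuclear receptors), CACGTG (the E-box), ACGTG (the hypoxia response core, which overlaps the E-box), GTAAACA (FOXO), GGGCGG (SP/KLF), CCAAT, and the NRF1 motif.
Got1: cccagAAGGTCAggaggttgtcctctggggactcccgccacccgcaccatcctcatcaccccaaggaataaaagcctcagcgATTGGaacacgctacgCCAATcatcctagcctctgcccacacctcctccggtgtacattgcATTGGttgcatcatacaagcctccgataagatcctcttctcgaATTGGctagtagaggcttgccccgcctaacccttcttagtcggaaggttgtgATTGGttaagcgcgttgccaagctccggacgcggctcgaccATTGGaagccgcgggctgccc
Got2: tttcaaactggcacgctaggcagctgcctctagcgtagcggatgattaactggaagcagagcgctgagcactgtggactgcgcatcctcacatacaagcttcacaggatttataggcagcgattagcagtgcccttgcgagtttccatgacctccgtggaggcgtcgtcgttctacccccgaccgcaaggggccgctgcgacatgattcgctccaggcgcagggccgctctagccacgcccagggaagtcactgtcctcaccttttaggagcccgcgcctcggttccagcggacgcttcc
The *Got1* window holds 1 AAGGTCA, which 3.19% of 13543 windows of tested genes hold, and 6 CCAAT, of which 1 reads CCAAT and 5 read ATTGG on the strand shown. At least 1 CCAAT was found in 37.9% of windows, and 6 or more in 20 of the 13543 (0.148%). The *Got2* window holds none of these letter strings, and neither does that of *Slc25a12*.

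Among the other members, CCAAT was found in the windows of *Mdh1* (2), *Slc25a11* (1) and *Slc25a13* (1). The E-box was found in 1 of the 7 windows, that of *Slc25a13*, against 9.51% of all windows. ACGTG was found in those of *Mdh1* and *Slc25a13*, against 24.5% of all windows, and GGGCGG in those of *Mdh1*, *Mdh2* and *Slc25a11*, against 60.9%. The FOXO and NRF1 motifs were found in 0 of the 7, against 2.50% and 9.22% of all windows. These are matches of letters in a window and not binding sites, and no motif was shared by *Got1* and *Got2*.

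The malate dehydrogenases had the highest levels of the shuttle, and their groups overlapped. *Mdh1* (ENSMUSG00000020321; chromosome 11, GRCm38, 21556787 to 21572367, minus strand), which uses NADH in the cytosol, was at 144, 158 and 174 TPM in the OSKA − 4OHT wells and at 204, 168 and 204 TPM in the OSKA + 4OHT wells. OSKA + 4OHT replicate 2 lay within the range of the OSKA − 4OHT wells. The group means were 159 ± 15.1 without and 192 ± 20.5 TPM with 4OHT (SD, n = 3 each), and the log2 fold change of 0.27 (standard error 0.14) did not pass the test (limma-trend, adjusted p = 0.321), with a 95% confidence interval of -0.059 to 0.605. It was 0.13 relative to the median of all genes and 0.15 under TMM. *Mdh2* (ENSMUSG00000019179; chromosome 5, GRCm38, 135778480 to 135790398, plus strand), which makes NADH from malate in the matrix and is also the last enzyme of the TCA cycle, was at 346, 238 and 182 TPM in the OSKA − 4OHT wells and at 242, 310 and 245 TPM in the OSKA + 4OHT wells. The OSKA + 4OHT wells lay inside the range of the OSKA − 4OHT wells, whose replicate 1 was the highest and replicate 3 the lowest. The group means were 255 ± 83.4 without and 265 ± 38.4 TPM with 4OHT (SD, n = 3 each). The difference on the log2 scale was 0.098 (standard error 0.25; limma-trend, adjusted p = 0.856). Its 95% confidence interval, -0.50 to 0.70, covers both a fall and a rise, and the direction reversed when OSKA − 4OHT replicate 3 (-0.12) or OSKA + 4OHT replicate 2 (-0.018) was left out and under TMM.

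The carriers had lower levels than the dehydrogenases and differed among themselves. *Slc25a11* (ENSMUSG00000014606; chromosome 11, GRCm38, 70644196 to 70647479, minus strand) was at 51.2, 57.5 and 56.5 TPM in the OSKA − 4OHT wells and at 63.0, 68.7 and 63.5 TPM in the OSKA + 4OHT wells. The groups did not overlap, but their gap was small, with means of 55.04 ± 3.39 and 65.1 ± 3.16 TPM (SD, n = 3 each). The log2 fold change of 0.24 (standard error 0.13, 95% confidence interval -0.074 to 0.555) did not pass the test (limma-trend, adjusted p = 0.354), and relative to the median of all genes it was 0.096, and under TMM 0.12. *Slc25a11* was thus a member with small spread (1.65% of tested genes had a within-group SD as small or smaller) and a log2 fold change near that of the median gene.

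*Slc25a13* (ENSMUSG00000015112; chromosome 6, GRCm38, 6041218 to 6217173, minus strand), known as citrin and the main aspartate-glutamate carrier of liver, had the lowest mean of the 7 in both groups. It was at 12.9, 15.8 and 10.2 TPM in the OSKA − 4OHT wells and at 22.6, 20.7 and 16.5 TPM in the OSKA + 4OHT wells. The groups were separated by less than 1 TPM, between OSKA − 4OHT replicate 2 and OSKA + 4OHT replicate 3. The group means were 13.0 ± 2.77 without and 19.9 ± 3.12 TPM with 4OHT (SD, n = 3 each), and the log2 fold change of 0.61 (standard error 0.23, 95% confidence interval 0.054 to 1.17) was close to that of *Got2*. With a within-group SD at the 29.8th percentile of tested genes, it did not pass the test (unadjusted p = 0.0362, adjusted p = 0.199).

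*Slc25a12* (ENSMUSG00000027010; chromosome 2, GRCm38, 71271063 to 71367749, minus strand), known as aralar and the main aspartate-glutamate carrier of brain and muscle, had the largest log2 fold change and the largest spread of the members. It was at 15.4, 14.4 and 80.8 TPM in OSKA − 4OHT replicates 1, 2 and 3 and at 55.6, 109 and 64.6 TPM in the OSKA + 4OHT wells. OSKA − 4OHT replicate 3 was above 2 of the 3 OSKA + 4OHT wells, while the other two OSKA − 4OHT wells were below all of them. The group means were 36.8 ± 38.1 without and 76.3 ± 28.4 TPM with 4OHT (SD, n = 3 each), with a log2 fold change of 1.46 (standard error 0.69, 95% confidence interval -0.19 to 3.11) that did not pass the test (limma-trend, adjusted p = 0.287). Without OSKA − 4OHT replicate 3 the log2 fold change was 2.26 (adjusted p = 0.0524), and without any 1 of the other 5 wells it was between 1.04 and 1.66. *Slc25a12* has 7 annotated transcripts of 204 to 6351 bases, 1 of them coding, and the table has 1 value per gene, so which transcript differed between the wells was not tested. A stretch of 247 bases is 99.6% identical on the opposite strand to a transcript of *Adpgk*, which was at 12.4 to 17.9 TPM in the 6 wells.

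**Figure D2:**
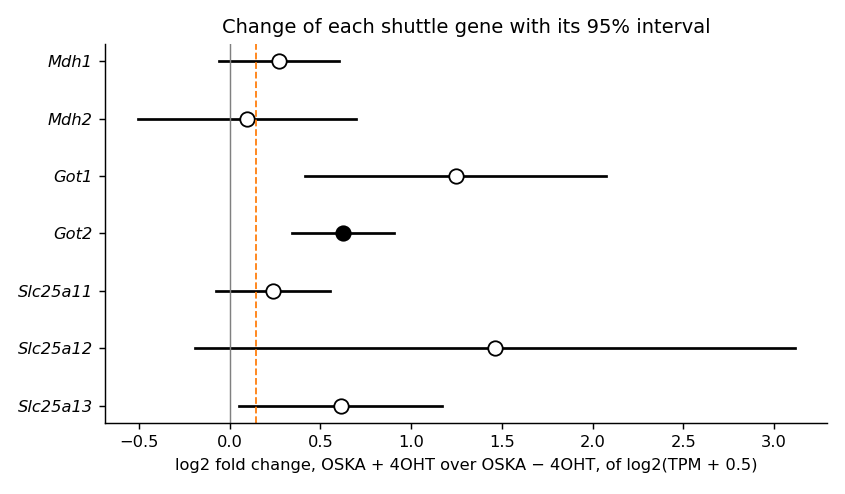
Log2 fold change of each shuttle gene, OSKA + 4OHT relative to OSKA − 4OHT, on the log2(TPM + 0.5) scale (x axis), with its 95% confidence interval (bar), filled where the adjusted p was under 0.05. The dashed line is the median of all tested genes, 0.14. The intervals of *Got1*, *Got2* and *Slc25a13* lie above 0, and the estimates run from 0.098 for *Mdh2* to 1.46 for *Slc25a12*.

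Other genes share sequence or position with some members. *Got2* has transcribed copies, of which *Gm10874* (98.8% identical over 1637 bases, opposite strand) was at 0.725 TPM or less and *Got2-ps1* (99.1% over 1293 bases, same strand) was at 0 in 5 wells and at 0.851 TPM in OSKA + 4OHT replicate 2, against 71.4 TPM or more for *Got2*. *Gm45760*, on the opposite strand within *Got2*, was at 0.707 TPM or less. *Mdh1* overlaps *Wdpcp* by 133 bases and *Slc25a11* overlaps *Rnf167* by 245 bases, each on the opposite strand. *Wdpcp* was at 4.15 to 12.5 TPM and *Rnf167* at 8.28 to 23.3 TPM. How the quantification split reads between such genes, and whether it used strand, is not given in the sources used here. For *Mdh1*, *Mdh2*, *Got1*, *Slc25a11* and *Slc25a13*, 0 transcripts of other genes matched at 90% identity or more over 200 bases or more.

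By group mean, the order of the levels was the same in both groups for the 3 highest genes, and below them most neighbours overlapped. In the OSKA − 4OHT wells it was *Mdh2*, *Mdh1*, *Got2*, *Slc25a11*, *Got1*, *Slc25a12* and *Slc25a13*. The ranges of *Mdh2*, *Mdh1*, *Got2* and *Slc25a11* did not overlap with those of their neighbours up to *Slc25a11*, whereas *Slc25a11* and *Got1*, *Got1* and *Slc25a12*, and *Slc25a12* and *Slc25a13* overlapped and their order is not resolved. In the OSKA + 4OHT wells it was *Mdh2*, *Mdh1*, *Got2*, *Got1*, *Slc25a12*, *Slc25a11* and *Slc25a13*. There *Got2* and *Got1*, *Got1* and *Slc25a12*, and *Slc25a12* and *Slc25a11* overlapped, and *Slc25a13* was below all others in every well.

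Summed over the 7 genes, the shuttle was at 665, 606 and 641 TPM in the OSKA − 4OHT wells and at 800.5, 880 and 819 TPM in the OSKA + 4OHT wells, which is given as a description. The groups did not overlap, with means of 637 ± 29.8 and 833 ± 41.5 TPM (SD, n = 3 each). The sum was not set relative to the median of all genes and was not computed under TMM or quantile normalization. As a mean over the wells, the dehydrogenases made up 64.9% of the sum in the OSKA − 4OHT group and 54.96% in the OSKA + 4OHT group. The aminotransferases made up 18.7% and 25.8%, with mean sums of 118 ± 21.3 and 214 ± 10.9 TPM. The 3 carriers made up 16.5% and 19.3%, with mean sums of 105 ± 37.2 and 161 ± 31.9 TPM. The dehydrogenases had mean sums of 414 ± 68.7 and 458 ± 17.9 TPM. The shares of the dehydrogenases overlapped between the groups (55.5 to 73.7% and 54.4 to 55.7%), as did those of the carriers (11.9 to 23.0% and 17.6 to 22.5%), while those of the aminotransferases did not (14.4 to 21.5% and 23.1 to 27.5%).

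The balance between the members of a pair was tested with the ratio of their TPM in each well, which does not depend on how a well was scaled. *Got1* over *Got2* was 0.342, 0.640 and 0.814 in the OSKA − 4OHT wells and 0.970, 0.726 and 0.935 in the OSKA + 4OHT wells. The cytosolic enzyme was thus below the mitochondrial one in all 6 wells, and the groups overlapped. The difference of the log2 ratio was 0.63 (2-sided exact permutation test, p = 0.2, adjusted over the 3 ratios p = 0.6), and 0.27 without OSKA − 4OHT replicate 1. *Mdh1* over *Mdh2* was 0.416, 0.663 and 0.959 in the OSKA − 4OHT wells and 0.845, 0.544 and 0.831 in the OSKA + 4OHT wells, with a difference of the log2 ratio of 0.18 (exact p = 0.7, adjusted p = 0.7). Its direction turned without OSKA − 4OHT replicate 1 (-0.14). The mitochondrial malate dehydrogenase was the higher one in all 6 wells.

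*Slc25a12* over *Slc25a13* was 1.19, 0.911 and 7.89 in the OSKA − 4OHT wells and 2.46, 5.25 and 3.91 in the OSKA + 4OHT wells. *Slc25a12* was the higher of the 2 carriers in 5 of 6 wells, and OSKA − 4OHT replicate 3 had the highest ratio of all. The difference of the log2 ratio was 0.85 (exact p = 0.4, adjusted p = 0.6), and it ranged from 0.27 without OSKA − 4OHT replicate 2 to 1.83 without OSKA − 4OHT replicate 3. With 3 wells against 3 the smallest p that this exact test can give is 0.1, so no ratio could have passed. Within the OSKA − 4OHT group, the *Got1* over *Got2* ratio and the *Mdh1* over *Mdh2* ratio were both lowest in replicate 1 and highest in replicate 3.

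**Figure D3:**
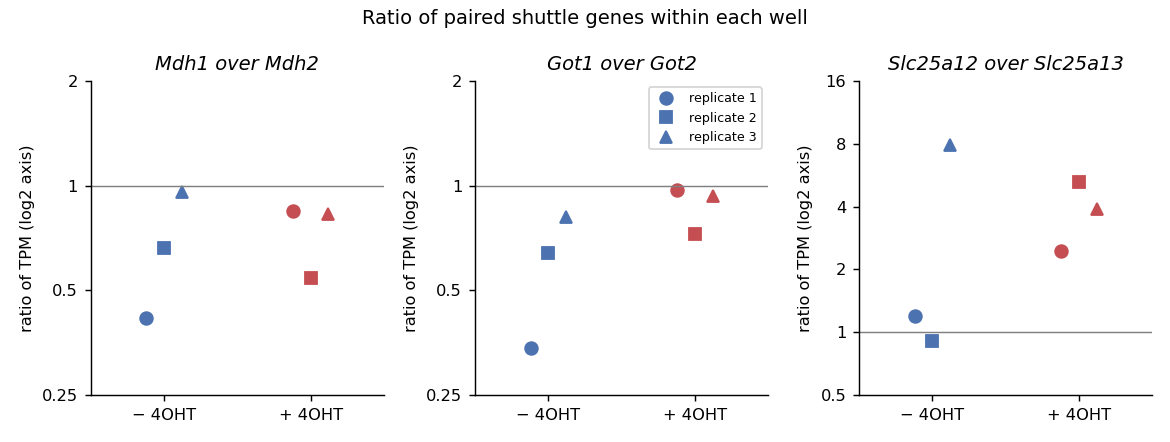
Ratio of the TPM of paired shuttle genes within each well (y axis, log scale), for *Mdh1* over *Mdh2*, *Got1* over *Got2* and *Slc25a12* over *Slc25a13*. Symbols are the 3 OSKA − 4OHT and 3 OSKA + 4OHT wells. The groups overlap in each of the 3 ratios, and *Slc25a12* over *Slc25a13* runs from 0.911 to 7.89.

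The changes of the shuttle genes were set beside 8 lists of genes of the neighbouring reactions (58 genes, of which 50 were tested). Of these, 4 were called higher and 0 lower, against 3.52% and 1.97% of all tested genes, and their median log2 fold change was 0.21, against 0.61 for the 7 members and 0.14 for all tested genes. The lower side of this count depended on the scaling and on the filter. There were 4 higher and 3 lower (*Asns*, *Glud1* and *Paics*) under TMM and 4 higher and 2 lower (*Asns* and *Paics*) under quantile normalization. With a filter of 5 TPM, 4 were higher and 1 (*Glud1*) was lower. Both counts were 0 without OSKA + 4OHT replicate 1 and without OSKA + 4OHT replicate 2, 3 higher and 0 lower without OSKA + 4OHT replicate 3, and 2 higher and 0 lower without OSKA − 4OHT replicate 1 or 2. The other system that moves reducing power of NADH into mitochondria is the glycerol 3-phosphate shuttle, and 0 of its 3 genes were called by limma-trend, nor did any have an unadjusted p under 0.05. Its cytosolic enzyme *Gpd1* was at 0, 0.281 and 3.11 TPM in the OSKA − 4OHT wells and at 3.20, 4.47 and 2.29 TPM in the OSKA + 4OHT wells (adjusted p = 0.287), which overlapped. *Gpd1l*, a relative of *Gpd1*, was at 9.45, 8.92 and 8.09 TPM and at 10.8, 10.9 and 12.8 TPM, without overlap (log2 fold change 0.36, adjusted p = 0.338). *Gpd2*, the enzyme of the inner membrane, was at 39.0, 23.0 and 19.97 TPM and at 25.8, 24.9 and 23.9 TPM (log2 fold change -0.073, adjusted p = 0.906). *Mdh1* and *Mdh2* were above each of these 3 genes in all 6 wells.

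*Ldha*, the lactate dehydrogenase subunit that competes with the shuttle for cytosolic NADH, rose with 4OHT. It was at 620, 628 and 632 TPM in the OSKA − 4OHT wells and at 1571, 1564 and 1195 TPM in the OSKA + 4OHT wells. The groups were far apart, with a log2 fold change of 1.19 (standard error 0.13; limma-trend, adjusted p = 0.00728), and *Ldha* was the only gene called among the 5 tested lactate dehydrogenases and malic enzymes. Of the enzymes that make αKG, *Idh2*, the mitochondrial NADP-dependent isocitrate dehydrogenase, was at 33.2, 37.5 and 37.7 TPM and at 88.1, 73.8 and 69.7 TPM (adjusted p = 0.0160, log2 fold change 1.08, standard error 0.15). *Bcat1*, the cytosolic branched-chain aminotransferase, which uses αKG as the amino group acceptor, was at 66.9, 87.1 and 90.7 TPM and at 232, 254 and 197 TPM (adjusted p = 0.00925, log2 fold change 1.48, standard error 0.17). These were the 2 genes called among the 11 tested of glutamate and αKG interconversion, whose median log2 fold change was -0.016, with 5 of 11 above 0. *Idh1*, the cytosolic isocitrate dehydrogenase, was at 160.8, 153.5 and 160.4 TPM without and at 151.5, 163.5 and 154.5 TPM with 4OHT. These groups overlapped (log2 fold change -0.016, limma-trend adjusted p = 0.952). *Glud1*, glutamate dehydrogenase, which makes αKG from glutamate in the matrix, was at 282, 343 and 324 TPM without and at 209, 230 and 203 TPM with 4OHT. These groups did not overlap, and the log2 fold change of -0.56 missed the threshold (adjusted p = 0.0543) but passed it under TMM (0.0239) and with a filter of 5 TPM (0.0463), though not under quantile normalization (0.0612). *Gpt2*, the mitochondrial alanine aminotransferase, was at 7.18, 8.68 and 8.44 TPM without and at 23.2, 15.4 and 13.9 TPM with 4OHT, also without overlap (log2 fold change 1.03, adjusted p = 0.0688). *Idh1*, *Glud1* and *Gpt2* were named after their values were seen.

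*Pcx*, pyruvate carboxylase, which makes oxaloacetate in the matrix, was at 51.8, 38.9 and 61.3 TPM and at 128, 121 and 112 TPM (limma-trend adjusted p = 0.0199, log2 fold change 1.26, standard error 0.19). Of the other genes of its list, *Pck2* and *Acly* were not called and *Pck1* was too low to be tested. Across the 14 alternative fits the adjusted p was under 0.05 in 11 for *Bcat1*, 10 for *Ldha*, 9 for *Idh2* and 9 for *Pcx*, against 4 for *Got2*.

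The remaining lists had no gene called by limma-trend. Of the 16 other genes of the TCA cycle, 0 were called, 4 had an unadjusted p under 0.05 (21.3% of all tested genes did), 12 had a log2 fold change above 0, and their median log2 fold change of 0.16 was close to that of all genes. Of the 4 tested mitochondrial carriers of carboxylates, glutamate and aspartate outside the shuttle, 0 were called and 2 had an unadjusted p under 0.05, *Slc25a10* (the dicarboxylate carrier, adjusted p = 0.0687) and *Ucp2* (adjusted p = 0.0715), named after their values were seen. Of the 7 tested genes that use aspartate or move it across the plasma membrane, 0 were called and 5 had an unadjusted p under 0.05, again against 21.3% of all tested genes. These 5, likewise named after their values were seen, went in both directions. *Asns* and *Paics*, which use aspartate for asparagine and purine synthesis, had log2 fold changes of -0.70 and -0.59 (adjusted p = 0.0703 and 0.0633), and both were called lower under TMM (0.0258 and 0.0208) and under quantile normalization (0.0309 and 0.0480). *Cad*, of pyrimidine synthesis, was at -1.19 (adjusted p = 0.170), *Ass1*, of argininosuccinate synthesis, at 0.53 (0.232). *Slc1a2*, a plasma membrane transporter, was low, at 1.18, 0.167 and 0 TPM without and 3.52, 0.957 and 6.05 TPM with 4OHT, and its fold change depends on the pseudocount. Of the paralogs of the shuttle enzymes, *Got1l1* was at 2.77 TPM or less in every well and was not called, and *Mdh1b* was too low to be tested.

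**Figure D4:**
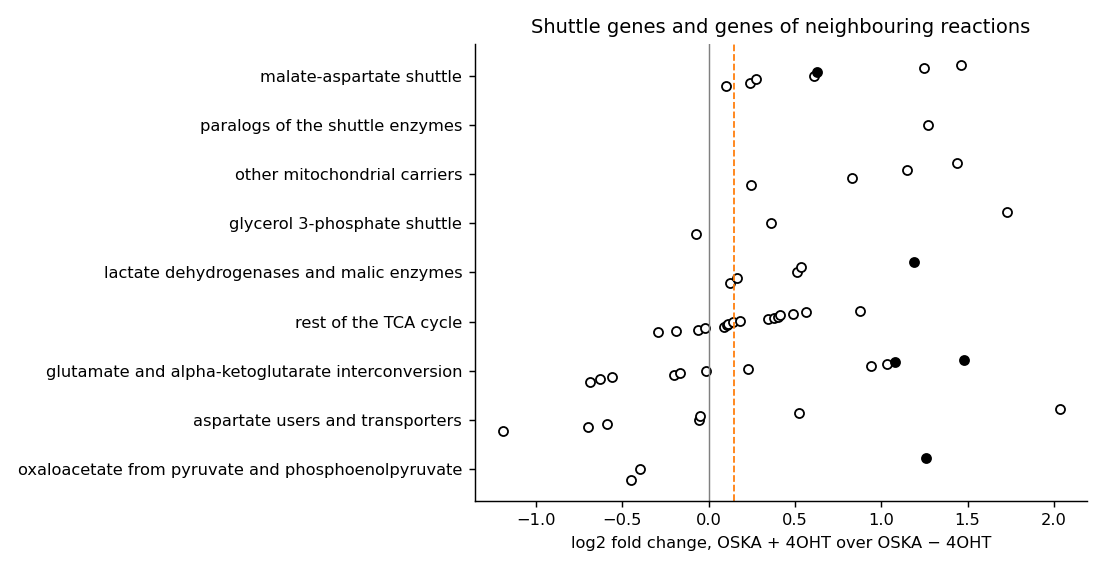
Log2 fold change on the log2(TPM + 0.5) scale (x axis) of each tested gene of the shuttle and of the 8 lists of neighbouring reactions. Points are genes, filled where the Benjamini-Hochberg adjusted p was under 0.05, and the dashed line is the median of all tested genes. The called genes are *Got2* in the shuttle and *Ldha*, *Idh2*, *Bcat1* and *Pcx* in the lists.

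*Got2* was compared over the 6 wells with the 8798 genes that had a mean of at least 10 TPM, by the Pearson correlation of log2(TPM + 0.5), as a description. The 3 most alike were *Tfap2a*, a transcription factor of ectoderm and neural crest (r = 0.999), *Zbp1*, a sensor of Z-form nucleic acids (r = 0.999), and *Rnf213*, a ubiquitin ligase induced by interferon (r = 0.999). *Tfap2a* was at 4.42, 4.72 and 5.22 TPM in the OSKA − 4OHT wells and at 13.3, 17.5 and 17.1 TPM in the OSKA + 4OHT wells, and *Zbp1* was at 23.2, 25.6 and 28.2 TPM and at 119, 149 and 155 TPM. *Rnf213* was at 18.4, 19.8 and 21.0 TPM and at 59.6, 79.1 and 70.4 TPM. Like *Got2*, all 3 were lowest in replicate 1 within each group, and the ratio of their group means was larger than that of *Got2*. The 6 points fall into 2 groups, so the correlation holds the difference between the groups within it.

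The stability of the members' differences to the processing was examined in 14 alternative fits. The log2 fold changes of *Got1*, *Got2*, *Mdh1*, *Slc25a11*, *Slc25a12* and *Slc25a13* were above 0 in all 14, and that of *Mdh2* was below 0 in 3. *Slc25a11* (0.12 to 0.27) and *Got2* (0.50 to 0.66) had the narrowest ranges, and *Slc25a12* the widest, 1.04 to 2.26.

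**Figure D5:**
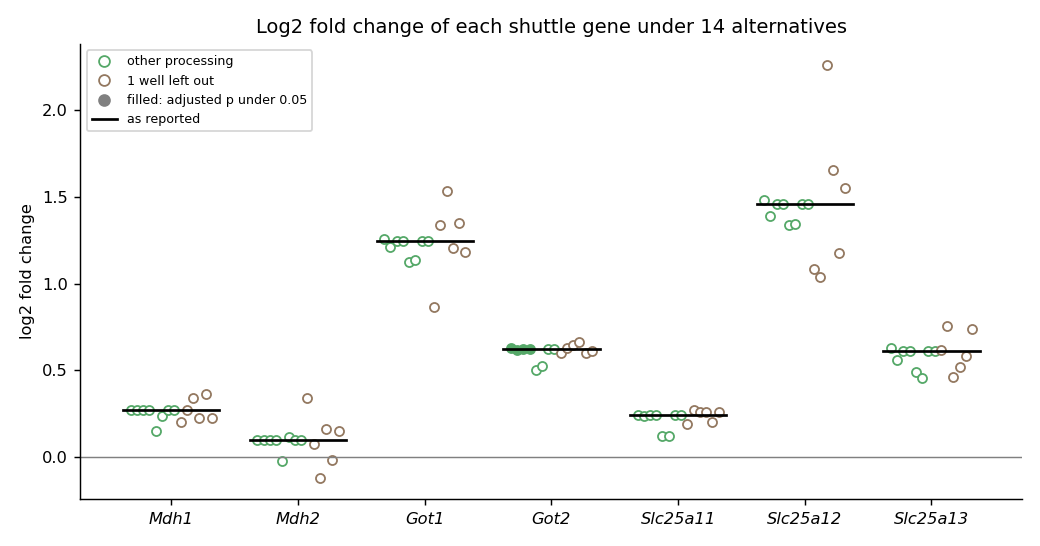
Log2 fold change of each shuttle gene (y axis) as reported (black line) and in the 14 alternative fits, each fit being 1 point, in green for another processing and brown for 1 well left out, filled where the adjusted p was under 0.05. Points of *Got2* lie together between 0.50 and 0.66, those of *Got1* run from 0.87 to 1.53, and those of *Mdh2* lie on both sides of 0.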

How the data were processed

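PolyA RNA of 3 OSKA + 4OHT and 3 OSKA − 4OHT wells was sequenced from stranded libraries. The authors trimmed the reads with Trim Galore, quantified them with Salmon and deposited TPM per gene and well. Versions and annotation are not given in the sources used here. Their columns of fold change, average level, F statistic and p-value, 4 in all, were not used. Ensembl identifiers were matched to symbols and positions in GENCODE M21 (GRCm38), and genes to promoters from RefSeq (GRCm38.p6, all 7 members matched).

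TPM keeps no depth, so no count model was used. Genes were tested with limma 3.58.1 in R 4.3.3 on log2(TPM + 0.5) with a trend and no block, for a mean of at least 1 TPM, with Benjamini-Hochberg adjustment over all genes. On simulated data with 200 of 15382 genes changed, it recovered 11% of those changed by 1 and 39.8% of those changed by 2 on the log2 scale, with 7 false calls. The changed genes were drawn from all tested genes and were fewer than the 845 called in the data. These shares therefore need not hold for the members. A gene that was not called is not shown to be unchanged. Ratios were compared with an exact permutation test. Transcripts were compared with BLAST 2.17.0, at 90% identity or more over 200 bases. Python 3.11.15 and pandas 2.3.3 were used.

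The members and lists were chosen with earlier results of these data known. All members are named, and from each other list the called genes with the largest rise and fall, all glycerol 3-phosphate shuttle genes and the 3 genes most like *Got2*. Other genes, such as *Idh1*, *Idh2*, *Glud1*, *Gpt2*, *Got1l1*, *Slc25a10*, *Ucp2*, the aspartate users and single markers, were named after their values were seen. Pyruvate carboxylase, listed as Pc, was matched as *Pcx*. Alternatives were pseudocounts of 0.1 and 2, no filter and a filter of 5 TPM, TMM and quantile scaling, limma without a trend, the replicate number as a block, and leaving out each well. The protein sequences of the members were not compared. Protein levels and the flux through the shuttle were not examined here, and the RNA levels do not stand for them.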

Additional observations from a re-analysis of the deposited data

How the results depend on the processing

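The members called at an adjusted p under 0.05 numbered 1 with pseudocounts of 0.1 and 2, with no filter and with a filter of 5 TPM, and 0 under TMM, under quantile normalization, with limma without a trend and with the replicate block. They numbered 0 in each of the 6 fits that leave out 1 well, where 2 to 3 members had an unadjusted p under 0.05, as in the other fits with 0 calls. Over all genes the calls numbered 845, with 205 (without OSKA + 4OHT replicate 1) to 505 when 1 well was left out and 47 with the replicate block. The log2 fold change of *Mdh2* was -0.024 under TMM and -0.12 to 0.34 without 1 well, below 0 without OSKA − 4OHT replicate 3 and without OSKA + 4OHT replicate 2. The log2 difference of the *Mdh1* over *Mdh2* ratio was -0.14 without OSKA − 4OHT replicate 1 and up to 0.47 without another well, that of *Got1* over *Got2* 0.27 to 0.90, and that of *Slc25a12* over *Slc25a13* 0.27 to 1.83. The difference of the summed TPM was 172 to 212 without 1 well. The causes were not tested. The replicate numbers were not taken to pair the wells, since the correlations of same-numbered wells' deviations were only 0.0235, 0.0341 and 0.0837. Even so, 5 of the 6 wells, all but OSKA + 4OHT replicate 1, correlated best with their own number, as a hint from the data. Whether the numbers pair the wells is thus not settled. With the replicate block the adjusted p of *Got2* was 0.132, and none of *Bcat1*, *Ldha*, *Pcx* and *Idh2* was called (0.0640 to 0.101). Leaving out a well leaves 5 wells, and the depth of the libraries is not known.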
